A study of Homo sapiens with 4 samples.

Results

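The cytosolic ribosome is built from a large subunit, whose proteins are encoded by genes named RPL, and a small subunit, whose proteins are encoded by genes named RPS. These genes are transcribed at high rates in dividing cells, and their short mRNAs begin with a pyrimidine tract through which nutrient and growth signals control translation. Nearly every one of the proteins is present in a single copy in each ribosome, and cells make them in a balanced supply. The cytosolic ribosomal protein genes were taken by symbol from GENCODE 44 as protein-coding genes on the autosomes and the X chromosome whose names are RPL or RPS and a number, with the P-stalk genes RPLP0, RPLP1 and RPLP2 and with RPSA. This gave 82 genes, 50 for the large and 32 for the small subunit. Of them, 78 held at least 1 PAS cluster (PAC, a group of nearby cleavage and polyadenylation sites) with its dominant site (the position with the most tags) in an exon on their own strand, among 11192 genes with such a PAC. They held 114 of the 17627 PACs listed.

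PAS-seq, which reads the 3′ end of polyadenylated RNA, was done on 4 libraries of the established esophageal squamous cell carcinoma lines KYSE30 and TE-1, to ask whether l-lactate alters the choice of poly(A) site. Each line gave 1 library from cells kept for 24 h in l-lactate at 20 mM and 1 from control cells with PBS, and no condition had a replicate. The cell line labels of the control samples read KYSE32 and TE-3, whereas KYSE30 and TE-1 stand in their titles and in the study's methods, and the latter names were followed. Levels are in TPM, which here means the tags of a PAC per 1000000 tags of its library. Each mRNA molecule has a single 3′ end, so these levels carry no length term and were compared between genes without one.

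The libraries held 7174991 to 10393799 tags, and 92.5% to 93.1% of them lay in listed PACs. Spearman's rho over 10143 genes was 0.990 and 0.991 between the libraries of a line and 0.724 to 0.731 between lines. Of the epithelial markers, KRT8, KRT18 and EPCAM were listed in every library. CDH1 was listed at 204 to 228 TPM in KYSE30 but at 0 and 1.30 in TE-1. All 4 were lower in both TE-1 libraries than in either KYSE30 library, with EPCAM at 563 to 635 TPM in KYSE30 and 30.7 to 36.4 in TE-1. Of 8 squamous markers 4 were listed. KRT17 had 187 to 245 TPM in TE-1 and was listed at 0 in KYSE30, and KRT6A had 20.3 and 40.4 TPM in KYSE30 and was listed at 0 in TE-1. PERP had 101 to 343 TPM and DSP 180 to 306. KRT5, KRT14, TP63 and SFN were listed at 0 in every library, but so were EEF1G and FBL, which every dividing cell uses, so these zeros do not show absence. Of 6 markers of blood, fibroblast and endothelial cells, 1 was listed, with summed levels of 0 in KYSE30 and 4.84 to 5.39 TPM in TE-1.

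Ribosomal protein genes made up 18.4% to 20.2% of the listed 3′ ends, as plotted in the bar chart of shares. They held 20.2% of listed TPM in the KYSE30 control (95% Wilson interval 20.16% to 20.22%, counting error only) and 19.8% with l-lactate (19.77% to 19.84%). In TE-1 cells the share was 19.7% in the control (19.71% to 19.76%) and 18.4% with l-lactate (18.34% to 18.40%). Both lines had the lower share with l-lactate, and the TE-1 library with l-lactate was the lowest of the 4. Large subunit genes gave 10.8% to 11.6% and small subunit genes 7.58% to 8.75%. With 1 library per condition, the spread between cultures is not known, and the share was not tested.

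**Figure D1:**
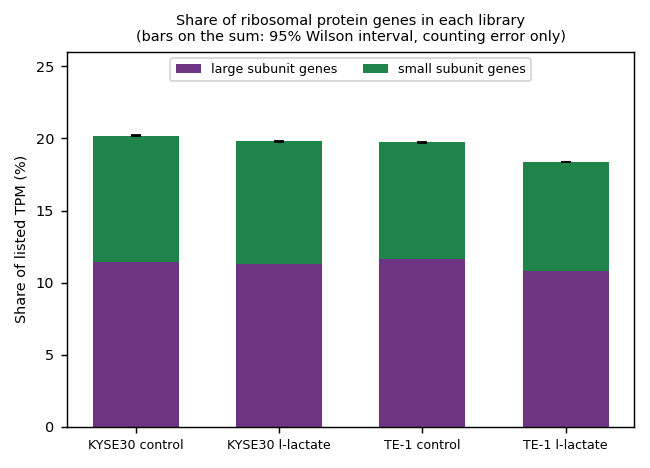
Share of listed TPM (%) that fell in exonic PACs of large and small subunit ribosomal protein genes in each of the 4 libraries; bars start at 0 and error bars on the sum are 95% Wilson intervals for counting error. The sum is 20.2% and 19.8% in KYSE30 and 19.7% and 18.4% in TE-1, control first.

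Of the 10 genes with the highest mean TPM in the series, 8 encoded ribosomal proteins, and 52 of the first 100 did. The median member had a mean of 2180 TPM, against 21.5 TPM over all genes with a PAC. Listed levels were far from equal. The middle 50% of the 78 genes ran from 692 to 3344 TPM, a 4.83-fold span, 54 genes had a mean of at least 1000 TPM and 8 had one below 100. The order was much the same in every library. Spearman's rho over the 78 genes was 0.998 and 0.997 between the libraries of a line and 0.916 to 0.918 between lines, a description over genes that share a library and are not replicates.

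**Figure D2:**
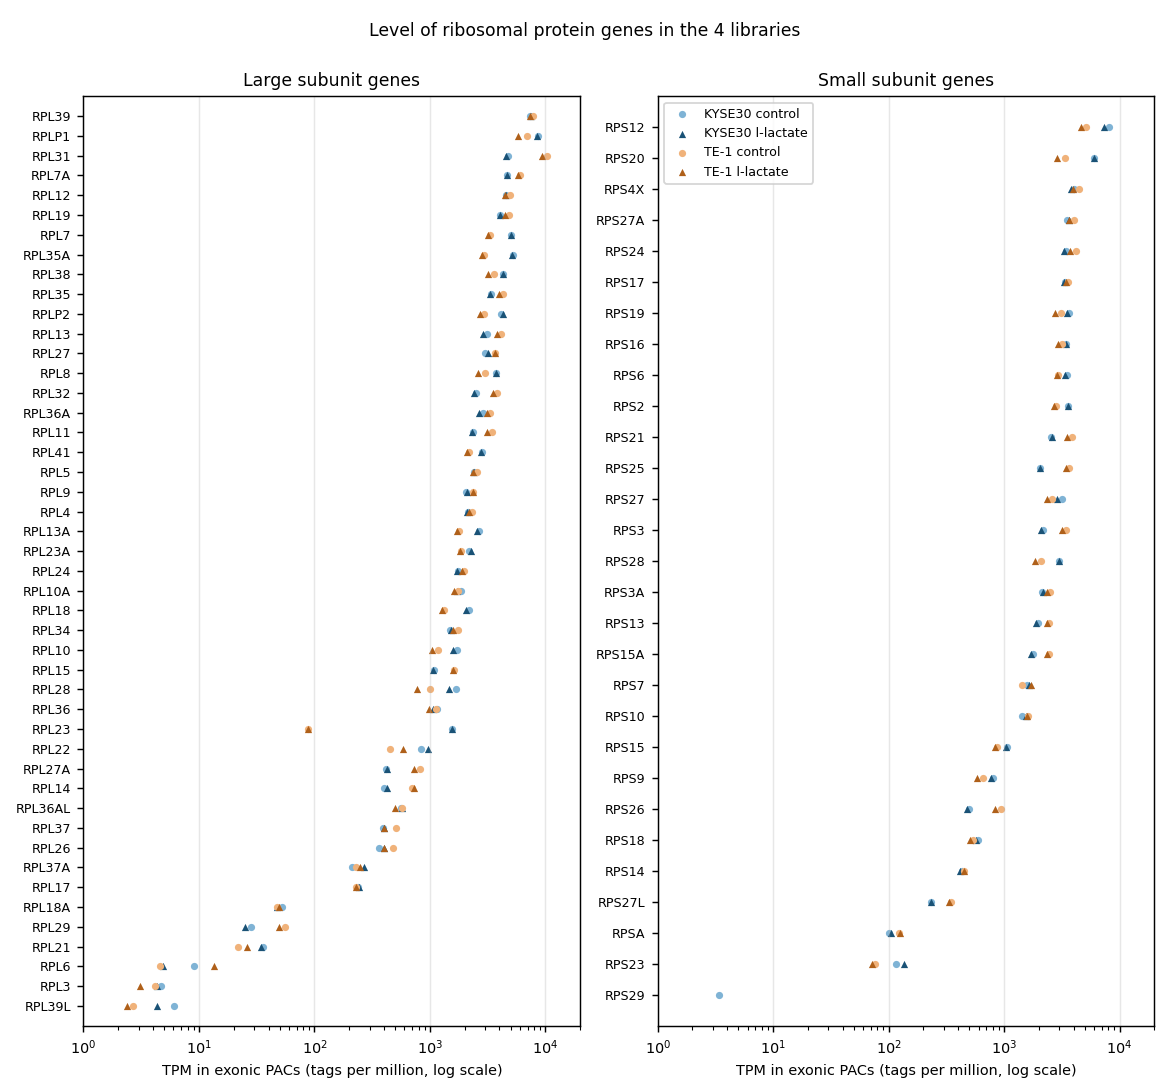
TPM (log axis) of ribosomal protein genes with an exonic PAC, all but those not reported here, for the large subunit (left) and the small subunit (right), with 1 point per library and values of 0 left out. Of the 78 genes, 54 have a mean of at least 1000 TPM and 8 one below 100, and RPL23 has the widest gap between the lines, at 17.4-fold.

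RPL39, RPLP1, RPL31 and RPS12 were among the 5 highest genes. RPL39, a small protein at the exit tunnel of the large subunit, had 7314 TPM in the KYSE30 control, 7455 with l-lactate, 7814 in the TE-1 control and 7340 with l-lactate. The libraries overlapped between lines. RPLP1, an acidic protein of the stalk that recruits elongation factors, had 8644 and 8429 TPM in KYSE30 and 6937 and 5780 in TE-1, control first. RPS12 had 8010 and 7273 TPM in KYSE30 and 5147 and 4673 in TE-1. RPLP1 and RPS12 were higher in both KYSE30 libraries than in either TE-1 library, whereas RPL31 was higher in both TE-1 libraries.

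The 5 lowest genes were RPS29, RPL39L, RPL3, RPL6 and RPL21, of which all but RPL39L encode core parts of the ribosome. RPL3, which lies at the peptidyl transferase centre, had 4.71 and 4.32 TPM in KYSE30 and 4.14 and 3.07 in TE-1, all at a single position. RPL6 had 9.02 and 4.88 TPM in KYSE30 and 4.62 and 13.5 in TE-1, and RPL21 had 35.8 and 34.4 in KYSE30 and 21.7 and 25.9 in TE-1. RPL39L, a paralogue of RPL39 known mainly from testis, had 6.06 and 4.32 TPM in KYSE30 and 2.69 and 2.36 in TE-1. RPS29 was listed in its exons only in the KYSE30 control, at 3.37 TPM.

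For RPS29 the low value turned on where the annotation ends. RPS29 and RPLP0 each had a strong PAC whose dominant site lay 1 nt past the end of an annotated transcript and so outside every exon. That of RPS29 had 2665 and 2529 TPM in KYSE30 and 1872 and 1671 in TE-1, and that of RPLP0, the scaffold of the P stalk, had 1214 and 1116 TPM in KYSE30 and 953 and 845 in TE-1. A PAC of RPL30 5 nt past a transcript end held 176, 163, 122 and 101 TPM, in the same order, and a PAC of RPL6 1 nt past its end held 13.1 to 14.7. The paralogues RPL3L and RPL10L, whose expression is known from muscle and testis, had no PAC in their exons. None of these PACs outside exons enters the gene levels or the tests on them. They did serve to place the ends of RPS29, RPLP0, RPL30 and RPL6 in the search for copies.

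The bases at the listed sites had a fixed pattern. The dominant site was an A in 52586 of the 59770 placed rows, and both of the bases before it were other than A in 59319 of them (99.2%). For members both bases were other than A in 94.7% of 436 rows. At the annotated end of the reference (MANE) transcript, the base before the last base other than A was an A for 6 of the 11 members with a mean under 250 TPM, namely RPL3, RPL6, RPL17, RPL21, RPL29 and RPS23, and for 12 of the 67 members at or above it. These bases are not always those at the main site. Relative to the MANE end, that site lay at -2747 nt for RPS23, -677 for RPL6 and -77 for RPL29. It lay at -12 nt for RPL17, -3 for RPL21 and -2 for RPL3. RPS29 is among the 11 only by its level in exons. The split at 250 TPM was chosen after the values were seen, and the part of this pattern in the low levels was not tested. Exact copies elsewhere in the genome are a further feature of these genes, which have many processed pseudogenes. The last 50 nt before the main site had another exact copy in 25 of 80 members, with 7 further copies for RPS26, 4 for RPL17 and RPS27 and 3 for RPL7. Median mean TPM was 2042 for the 25 and 2492 for the other 53 members with a level. For RPS29 and RPL6 that level was of exonic PACs, while the site searched lay outside exons. Among 1605 annotated ribosomal protein pseudogenes, only RPLP1P6 held a listed PAC, at 3.35 to 5.29 TPM.

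These mRNAs had short 3′ UTRs, and their main ends lay close to annotated ones. The main PAC lay in an annotated 3′ UTR for 75 of 78 members and within 10 nt of an annotated transcript end for 70. From the stop codon to the main dominant site, the median was 48 nt over the 75 members that could be measured on their canonical transcript (middle 50%, 39.5 to 66 nt), against 790 nt over 9763 other protein-coding genes, and 66 of the 75 members but 5.39% of other genes had less than 100 nt. RPS12 had the shortest, 20 nt, and RPL22 the longest, 454 nt. Over all exonic PACs of members, the median full width was 31 to 36 nt by library against 8 nt for other PACs, whereas the median width between the 0.1 and 0.9 quantile positions was 5 nt in both sets. The share of PACs whose quantile width was over 50 nt was 13.1% to 14.5% for members and 13.3% to 13.4% for others. Among main PACs with at least 100 TPM, the median full width was 50 nt for members and 21 to 24 nt for other genes. In the same PACs the median quantile width was 3 nt for members and 6 nt for other genes in every library, and 5.71% to 8.45% of the members' PACs spanned over 50 nt against 18.8% to 20.3% of the others. The bounds of a PAC are the same in all libraries, so full width by library varies only with which PACs entered. The quantile widths describe single libraries, and none of these values was tested.

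The canonical poly(A) signal AAUAAA lay in the 50 nt up to the main dominant site in 85.7% to 87.2% of members by library, against 69.9% to 70.3% for main PACs of other genes. With the variant AUUAAA counted too, these became 93.5% to 94.9% and 86.0% to 86.4%. The median gap between the signal and the site was 16 nt in both sets. The 30 nt up to and including the site are shown for the highest genes, for examples with the variant signal only or neither, and for members whose level turned on the line or the annotation, as read from GRCh38 on the coding strand, 5′ to 3′, in DNA letters. Capitals mark the hexamer AATAAA or ATTAAA.
RPL39 (chrX:119786505-119786534, minus strand): agtAATAAAtatgtaaggcctttcttttta
RPLP1 (chr15:69455517-69455546, plus strand): ataacatgttcAATAAAaagctgaacttta
RPL31 (chr2:101006390-101006419, plus strand): cgtcagatcaAATAAAgttataaaattgcc
RPS12 (chr6:132817533-132817562, plus strand): caagaaatgaagaAATAAAtctttggctca
RPL35A (chr3:197955820-197955849, plus strand): tttaagtggATTAAAaaacttactacctta
RPL38 (chr17:74209850-74209879, plus strand): ctgtattatATTAAAatactaaaaatccta
RPL7A (chr9:133351397-133351426, plus strand): aataattgaaataatacaaattttccttca
RPL23A (chr17:28723905-28723934, plus strand): gaatatatatatatatatatcttttcacca
RPL23 (chr17:38850088-38850117, minus strand): tgtaaaaAATAAAaaaaaaaactaaaccca
RPL3 (chr22:39312884-39312913, minus strand): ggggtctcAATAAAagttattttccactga
RPLP0 (chr12:120196698-120196727, minus strand): gaAATAAAggcttacttctttaaaaagtct
RPS29 (chr14:49583576-49583605, minus strand): tgtatataaAATAAAcatttgaaaaaaccc
RPL35A and RPL38 carried only the variant, with 15 nt from it to the site. RPL7A and RPL23A had neither hexamer in 50 nt, yet were listed at 4603 to 6063 and 1828 to 2278 TPM. No match says only that these letters were absent from the window.

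The lines differed in many of these genes, in both directions. In a limma fit on log2(TPM + 1) with line and treatment as terms, 25 of 76 tested members were higher in TE-1 and 31 higher in KYSE30 at an adjusted p of at most 0.05, or 56 in all. The share called, 73.7%, stood beside 74.0% of all 10143 genes tested. The members' differences were smaller in size. Their median absolute difference was 0.33 on the log2 scale against 0.70 over all genes. Of the 76, 20 (26.3%) were called and past 1.5-fold against 55.9% of all genes. The sets were not matched for level, which had a median of 2180 TPM over members and 21.5 TPM over all genes with a PAC. Whether sizes differ at equal level was not tested. The spread behind these p-values is how far the line difference varied between the treatments, with 1 residual degree of freedom, and not variation between cultures. Fitted without limma's trend of the variance on the level, 35 members (46.1%) were called, 14 higher in TE-1 and 21 higher in KYSE30, beside 66.4% of all genes. With 1 culture per condition, line and culture cannot be told apart.

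RPL23, which binds MDM2 outside the ribosome as well as forming part of the large subunit, stood apart from all other members. It had 1561 TPM in the KYSE30 control and 1546 with l-lactate, against 88.6 and 87.7 in TE-1. The log2 difference was -4.12 ± 0.06 (SE), or 17.4-fold lower in TE-1 (adjusted p = 2.34e-10, limma). Nearly all of it lay in the main PAC, at 1517 and 1493 TPM in KYSE30 and 74.9 and 68.5 in TE-1, whose dominant site was 1 nt further upstream in TE-1, at position 38850089 of chromosome 17 instead of 38850088. A distal PAC with its dominant site at 38847867 had 39.2 and 44.7 TPM in KYSE30 and 13.8 and 19.2 in TE-1, and so made up 2.51% and 2.89% of the gene's tags in KYSE30 but 15.5% and 21.9% in TE-1. Within 1 Mb of RPL23, 19 other genes were tested, with a median difference of -0.21 and a range from -3.09 to 1.72. Of these, 8 were lower in TE-1 and 3 higher. The nearest on either side, CWC25 and LASP1, had differences of -0.27, which did not pass the test, and -0.64 (adjusted p = 1.92e-05, limma), and RPL19, another member in that window, was 0.19 higher in TE-1.

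After RPL23, RPS20, RPL35A and RPL28 were among the members lowest in TE-1 relative to KYSE30. RPS20 had 6016 and 5954 TPM in KYSE30 and 3392 and 2844 in TE-1, a log2 difference of -0.95 ± 0.07 (SE, adjusted p = 1.41e-06, limma). RPL35A had 5221 and 5148 TPM in KYSE30 and 2932 and 2848 in TE-1, and it and RPL28 had differences of -0.84 each. In all 3 genes both KYSE30 libraries lay above both TE-1 libraries.

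The members highest in TE-1 were RPL31, RPL29, RPL27A, RPS26 and RPS25. RPL31 had 4781 and 4575 TPM in KYSE30 and 10272 and 9349 in TE-1, the highest value of any member in any library, and a log2 difference of 1.07 ± 0.06 (SE, adjusted p = 1.81e-07, limma). RPL29 was low, at 28.4 and 24.8 TPM in KYSE30 and 56.0 and 49.4 in TE-1, a difference of 0.96. RPL27A had 418 and 428 TPM in KYSE30 and 817 and 735 in TE-1, a difference of 0.87. RPS26, which contacts mRNA near the exit channel of the small subunit, differed by 0.87 and had 7 further genome copies of its last 50 nt. RPS25, needed by several viral internal ribosome entry sites, had 2026 and 2051 TPM in KYSE30 and 3664 and 3452 in TE-1, a difference of 0.80.

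**Figure D3:**
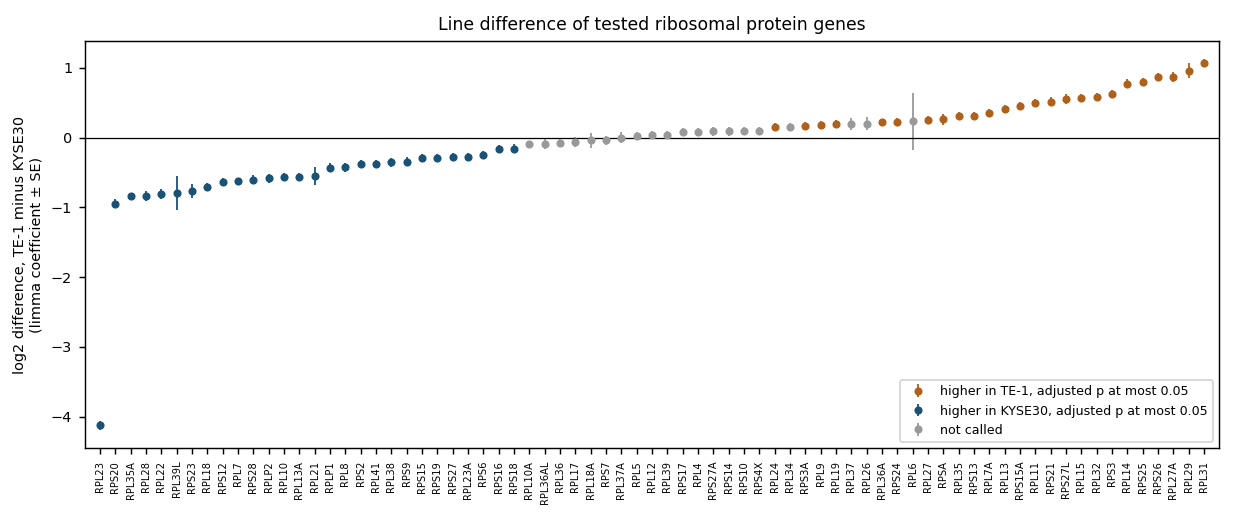
Log2 difference between lines (TE-1 minus KYSE30, limma coefficient with its SE) for the tested ribosomal protein genes, all but those not reported here, ordered by size and coloured by direction where the adjusted p was at most 0.05. RPL23 lies at -4.12, all others between -0.95 and 1.07.

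On some chromosomes the members called lay mostly on 1 side, and on others they were mixed. On chromosome 19, with 12 tested members, 10 were called higher in KYSE30 and 0 in TE-1, with a median log2 difference of -0.32. The median of the 639 other genes tested there was -0.25. On chromosome 11, 4 of 5 members were higher in TE-1 with a median of 0.62, beside 0.43 over 599 other genes, and on chromosome 3, 6 of 8 were higher in TE-1 with a median of 0.42, beside 0.26 over 580 others. All 3 tested members on chromosome 8 were lower in TE-1, with a median of -0.63 beside -0.35 over 347 other genes. On the X chromosome the members' median was 0.07 and that of 309 other genes was 0.97. On most chromosomes with tested members, the medians of members and other genes had the same sign. These medians had opposite signs on chromosomes 2, 4, 5, 16 and 20. They were 0.17 and -0.33 on chromosome 4, where 2 of 3 members were higher in TE-1 and 0 lower. On chromosome 16 they were 0.41 and -0.02, and on chromosome 2 they were 0.04 and -0.24. On chromosome 17, 2 of 6 members were higher and 3 lower in TE-1, on chromosome 1, 1 of 5 was higher and 3 lower, and on chromosomes 9, 12, 15, 16 and X at least 1 member was called each way. Over all chromosomes, 3687 of the 10143 genes tested were called higher in TE-1 and 3819 higher in KYSE30. Calls among the other genes of each chromosome were not counted, so the members' counts have no share of their own chromosome beside them. These counts and medians are descriptions with no test.

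Members with roles outside the ribosome or with paralogues were taken by name. RPL5 and RPL11, which with 5S rRNA form the particle that binds MDM2, had line differences of 0.02 (adjusted p = 0.725) and 0.50 (adjusted p = 3.65e-05, limma). RPL11 had 2356 and 2307 TPM in KYSE30 and 3431 and 3148 in TE-1. RPLP1 and RPLP2 of the stalk were both lower in TE-1, with differences of -0.43 and -0.58. RPSA, which also serves as a laminin receptor, had 100 and 106 TPM in KYSE30 and 122 and 125 in TE-1, a difference of 0.26 (adjusted p = 0.0139, limma). RPS27A, whose product is a fusion of ubiquitin and a ribosomal protein, had 3518 to 3994 TPM and a difference of 0.09 (adjusted p = 0.238, limma).

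RPL22 and RPS27 differed between the lines in the opposite direction to a paralogue. RPL22, a protein of the large subunit that can also bind RNA outside it, had 831 and 956 TPM in KYSE30 and 446 and 579 in TE-1, a log2 difference of -0.81. Its paralogue RPL22L1, whose symbol lies outside the rule, had 145 and 155 TPM in KYSE30 and 338 and 367 in TE-1, a difference of 1.23 (adjusted p = 2.99e-07, limma). RPS27 had a difference of -0.28. RPS27L, known as a p53 target, had 233 and 231 TPM in KYSE30 and 349 and 332 in TE-1, a difference of 0.55. RPL36AL, at 495 to 577 TPM, did not pass the test, with a difference of -0.09, and RPL36A was 0.22 higher in TE-1. RPL39L had a difference of -0.80 (adjusted p = 0.0146, limma) at only 2.36 to 6.06 TPM, and RPL39 had a difference of 0.04 (adjusted p = 0.581, limma).

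Other genes of translation gave a mixed picture between lines. Of 13 tested genes for elongation factors and other mRNAs known to begin with a pyrimidine tract, 4 were higher and 6 lower in TE-1. For comparison with this list and the next, 3687 of all 10143 genes tested were higher in TE-1 and 3819 lower, or 74.0% called. EEF1A1, which delivers aminoacyl-tRNA, had a difference of -0.59. Of 26 tested ribosome assembly factors, 20 were higher in TE-1 and 0 lower, with a median difference of 0.85, although their summed level was only 2350 to 3313 TPM. NCL, a nucleolar protein and the most abundant of the list, had 1016 to 1123 TPM and a difference of -0.09 (adjusted p = 0.195, limma). EBNA1BP2, the next, had 338 and 344 TPM in KYSE30 and 379 and 391 in TE-1, a difference of 0.17. The ribosomal protein genes themselves had a median difference of 0.01.

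With l-lactate no member passed the test over both lines, and none of the 10143 genes did (0.00% called, limma, adjusted p of at most 0.05). At an unadjusted p under 0.05 there were 9 members, 3 higher and 6 lower, and 996 genes in all. With a pseudocount of 5 in place of 1 TPM, 2 members passed, RPL22 upward and RPL28 downward, among 186 of all genes. The median log2 ratio of the 76 members was -0.06 against 0.02 over all genes, and 63 of 76 (82.9%) lay below 0 against 45.5% of all genes. In TE-1 the members' median ratio was -0.09 with 66 of 76 below 0, beside a median of 0.02 and 40.1% below 0 over all genes, and it was -0.15 with libraries centred on their median gene. In KYSE30 the members' median was -0.02 with 46 of 76 below 0, beside 0.00 and 46.4%. Of the members 43 (56.6%) were below 0 in both lines, beside 20.8% of all genes, and 7 members were above 0 in both. Whether differences of this size exceed the spread between cultures could not be tested.

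Both subunits had medians below 0 in each line. In TE-1 cells the median was -0.11 for 45 large and -0.09 for 31 small subunit genes, with 37 and 29 of them below 0. In KYSE30 cells the medians were -0.02 and -0.04. The 13 tested mRNAs of the pyrimidine-tract list had a median of -0.07 over both lines, with 8 below 0, and no call. The 26 assembly factors had a median of 0.09, with 4 below 0, and no call.

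Past 1.5-fold with l-lactate there was 1 member in each line, beside 5.38% of all genes in KYSE30 and 5.30% in TE-1. It was RPL6 both times, lower in KYSE30 and higher in TE-1, at 4.62 to 13.5 TPM. A minor PAC of RPL6 was listed at 3.9 TPM in the KYSE30 control and 6.85 TPM in TE-1 with l-lactate. In the other library of each line this PAC was not listed and entered the sum as 0. With only the highest PAC of each gene, 0 members passed 1.5-fold in either line, beside 5.14% and 5.11% of all genes. Among members above 5 TPM in all libraries with the same sign in both lines, the largest positive ratios were those of RPL22, RPL37A, RPS7, RPL14 and RPSA. RPL22 had log2 ratios of 0.20 in KYSE30 (95% counting interval 0.15 to 0.25) and 0.37 in TE-1 (0.32 to 0.43), with an adjusted p of 0.357 in limma. RPL37A went from 210 to 269 TPM in KYSE30 and from 227 to 248 in TE-1. RPS7, which like RPL23 can bind MDM2, went from 1565 to 1634 TPM in KYSE30 and from 1415 to 1714 in TE-1. RPL14 had ratios of 0.09 and 0.05, and RPSA had 0.07 and 0.03 with counting intervals that held 0.

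The largest negative ratios were those of RPL28, RPL29, RPL36, RPS27 and RPLP1. RPL28 went from 1667 to 1472 TPM in KYSE30 and from 997 to 771 in TE-1, log2 ratios of -0.18 (counting interval -0.22 to -0.14) and -0.37 (-0.42 to -0.33), with an adjusted p of 0.357 in limma. RPS27 went from 3193 to 2851 TPM in KYSE30 and from 2614 to 2370 in TE-1, and RPL36 had ratios of -0.10 and -0.21. RPLP1 had ratios of -0.04 in KYSE30 and -0.26 in TE-1. RPL29 had -0.19 and -0.18, and at its low level both counting intervals held 0. A counting interval treats every tag as a separate molecule and does not cover amplification or culture.

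Minor PACs of these genes tended the other way. Of the 78 members, 26 had more than 1 exonic PAC, 18 with 2, 6 with 3 and 2 with 4, and the 52 others (66.7%) had a single one, as did 70.1% of other protein-coding genes. Minor PACs together gave 0.50% of members' TPM in the KYSE30 control and 0.57% with l-lactate, and 0.37% and 0.48% in TE-1. Among minor PACs listed in both libraries of a line and above 5 TPM in at least 1, the share of the gene was higher with l-lactate in 17 of 26 in KYSE30 and in 23 of 27 in TE-1. For minor PACs of other protein-coding genes these were 1069 of 2136 and 1036 of 2154. The median log2 ratio of their TPM was 0.22 and 0.48, beside 0.01 and 0.04 for other genes. This comparison was added after the values were seen, rests on PACs of few tags and was not tested. Over all listed minor PACs of members, AAUAAA lay in the 50 nt up to the dominant site in 38.2% to 43.3% by library. For main PACs it was 85.7% to 87.2%. With AUUAAA counted too, minor PACs had 55.9% to 63.3%. Of all 114 PACs of members, 12 lay outside annotated 3′ UTRs, against 3 of the 78 main PACs.

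**Figure D4:**
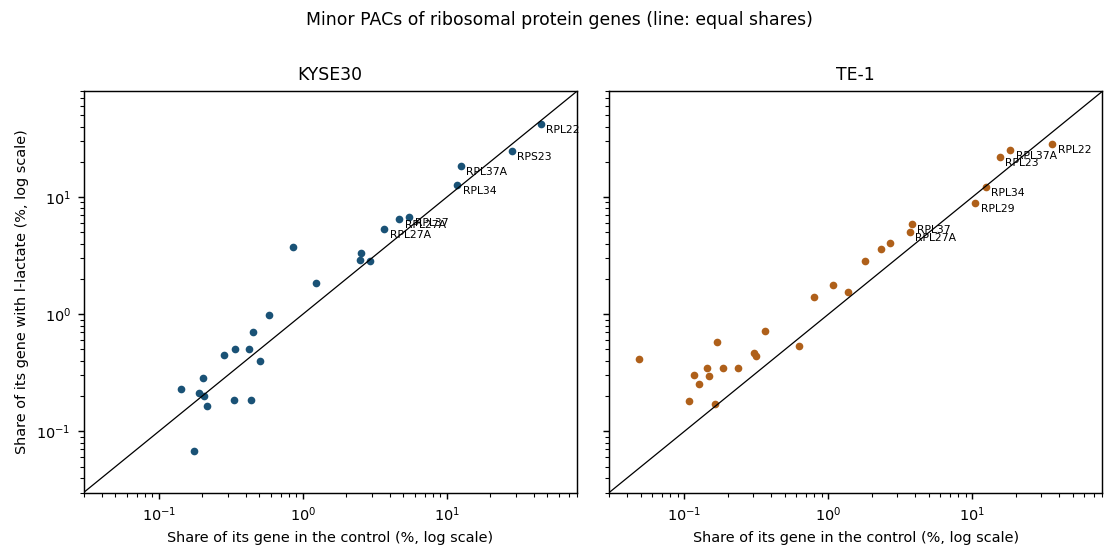
Share of its gene's TPM (%, log axes) held by each minor PAC of a ribosomal protein gene, control on the x axis and l-lactate on the y axis, for KYSE30 (left) and TE-1 (right); the line marks equal shares. In TE-1, 23 of 27 points lie above the line, and in KYSE30 17 of 26.

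Of members above 200 TPM in every library, RPL22 and RPL37A had the largest shares outside the main PAC, and both sites of each are shown. The distal PAC of RPL37A held 12.5% of its tags in the KYSE30 control (Wilson interval 10.9% to 14.2%) and 18.6% with l-lactate (16.9% to 20.4%), and 18.3% (16.8% to 19.9%) and 25.3% (23.5% to 27.2%) in TE-1. The intervals did not overlap in either line. The proximal site carried the canonical signal and the distal site the variant, in the 30 nt before them.
RPL37A, proximal (chr2:216501435-216501464, plus strand): cctatAATAAAtgggttaatttatgtaaca
RPL37A, distal (chr2:216502435-216502464, plus strand): ctaatttcacATTAAAtgttgcaaacgtct
RPL22 had the most even use of its PACs and shifted toward the proximal one. The distal PAC held 45.0% of tags in the KYSE30 control (43.8% to 46.2%) and 42.2% with l-lactate (41.1% to 43.4%), and 35.8% (34.5% to 37.2%) and 28.5% (27.3% to 29.8%) in TE-1. Its TPM went from 374 to 404 in KYSE30 and from 160 to 165 in TE-1, while the proximal PAC went from 457 to 552 and from 287 to 414. Here too the proximal site had the canonical hexamer and the distal site the variant.
RPL22, proximal (chr1:6186218-6186247, minus strand): actgtcAATAAAatgcgggtttctgggcca
RPL22, distal (chr1:6185031-6185060, minus strand): ttttctATTAAAgtggctaacacctggcta

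Other members with more than 1 PAC included genes with fewer tags or smaller shares. RPL28, whose main PAC was lower with l-lactate, had a downstream PAC that went from 42.4 to 49.1 TPM in KYSE30 and from 26.8 to 31.1 in TE-1. Of the 3 minor PACs of RPL27A, that nearest the main one went from 19.5 to 27.7 TPM in KYSE30 and from 19.0 to 26.3 in TE-1. The most distal PAC of RPL37 went from 21.5 to 26.6 and from 19.4 to 23.9 TPM. The larger of the minor PACs of RPS24 went from 15.1 to 6.13 TPM in KYSE30 and from 7.02 to 21.6 in TE-1, and the smaller from 6.06 to 2.23 and from 2.02 to 15.4. These lines went in opposite directions, which was not tested. The minor PAC of RPS23 had 32.9 and 33.3 TPM in KYSE30, 28.2% and 24.6% of the gene, and 0 and 1.89 TPM in TE-1. The minor PACs of RPL13, RPL15, RPS3, RPS19 and RPS28, and the larger of those of RPL32, had a larger share of their gene with l-lactate in both lines, each at under 17 TPM. Those of RPL5, RPL12 and RPS20 had a smaller share in KYSE30 and a larger one in TE-1, and that of RPL35A the reverse. RPL34 was the reverse of the common layout, since its larger PAC (1310 to 1535 TPM in the controls) lay 4653 nt past the end of its MANE transcript in the exon of a longer one. That PAC had 97.5% to 98.5% of its tags at a single position, neither hexamer in 50 nt, and 7 A among the 10 bases after the site. The PAC near the MANE end had 176 to 217 TPM.

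The position of the dominant site hardly changed. Among PACs of members above 5 TPM in both libraries, it was the same with and without l-lactate in 94 of 95 in KYSE30 (98.9%, Wilson interval 94.3% to 99.8%) and 93 of 96 in TE-1 (96.9%, 91.2% to 98.9%), beside 94.9% and 95.5% of other PACs. Between lines it was the same in 88 of 92 control PACs (95.7%) and 92 of 96 with l-lactate (95.8%), beside 93.8% and 93.7%. With l-lactate, the site of RPL21 in TE-1 moved 33 nt upstream, and that of a minor PAC of RPL37 moved 66 nt downstream, both in PACs below 36 TPM. Between lines the site of RPSA lay 98 nt further upstream in TE-1 in both treatments, with 26.9% to 28.4% of the PAC's tags at the dominant position in each library, and that of RPL23 differed by 1 nt in both.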

How the data were processed

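Polyadenylated RNA from 4 libraries was measured by PAS-seq, 1 library per line and treatment, grouped by the samples' own labels. According to the study's methods, the authors trimmed the reads, aligned them to the human genome (GRCh38.p14 in the submitters' processing notes) with HISAT2, discarded weakly used sites and joined nearby sites into PACs with CAGEr. The deposited files list for each PAC its bounds, dominant site, quantile positions and level in RPM (there named TPM), that is, tags per 1000000 tags of the library with no length term. PACs are listed only above a minimum, so a listed 0 is not a measured absence.

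PACs were assigned to genes by their dominant site in same-strand exons of GENCODE 44, and the levels of a gene's PACs were summed. Pseudogene copies and PACs past the annotated ends were kept apart. Tags per PAC were obtained from the RPM steps. Every value under 100 RPM came out whole within 0.05 tags, and higher values were not checked in this way. Wilson intervals at 95% and counting intervals of ratios cover counting error only, since reads without molecular identifiers are not independent molecules. Genes with more than 5 RPM in at least 1 library were fitted with limma 3.58.1 (R 4.3.3) on log2(RPM + 1) with line and treatment as terms and a variance trend, with Benjamini-Hochberg adjustment over 10143 genes and a threshold of 0.05. With 1 residual degree of freedom, the p-values rest on how far an effect differed between the lines or treatments. On simulated data for the l-lactate comparison (10143 genes, 200 changed), the fit found 142 at 1.5-fold and 184 at 2-fold, with 6 and 5 false calls. The simulation gave both lines the same mean and the same change, assumed the spread between libraries, and had no listing minimum. It therefore does not give the share of real changes that the fit would find in these libraries. Within a line a change past 1.5-fold was counted with no test. Python 3.11.15, pandas 2.3.3, SciPy 1.17.1 and matplotlib 3.10.9 were used for the rest. The hexamers AATAAA and ATTAAA were searched on the transcribed strand in the 50 nt up to the dominant site.

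Genes were named by rule: the P-stalk genes, RPSA, RPL5, RPL11, RPS27A and the paralogues; the 5 highest and 5 lowest by mean level; the 5 most positive and 5 most negative l-lactate ratios with the same sign in both lines and over 5 RPM throughout; the 5 most different in each direction between lines; and members with more than 1 PAC or a moved dominant site. Members, lists and rules were chosen with earlier results of these data known. Alternatives covered the pseudocount, the filter, the scaling, the PAC used, the variance trend, the fold and the annotation. A few genes that meet these rules are not reported here by name, though they stay in the fits, counts and medians.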

Additional observations from a re-analysis of the deposited data

Results flagged for a closer look

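In 7 of 76 tested members the l-lactate log2 ratio had opposite signs in the lines with both 95% counting intervals away from 0. Whether the lines differed was not tested, as each has 1 library per condition. The same count was not made over all genes, so no share stands beside it. Counting intervals narrow as tags increase, and the median member had 2180 TPM against 21.5 TPM over all genes with a PAC. RPL26 had 0.13 in KYSE30 and -0.27 in TE-1, and RPLP2 had 0.05 and -0.13. RPS21 had 0.03 and -0.14, RPS27A had 0.06 and -0.13, RPL39 had 0.03 and -0.09, and RPL7A had 0.02 and -0.08. RPL6, the only one lower in KYSE30, had -0.77 and 1.36 at under 14 TPM. A minor PAC of RPL6, listed in a single library of each line, was summed as 0 in the other.

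PACs of RPL9, RPS3 and RPS15A past their ends held at most 10.5 TPM. For 4 other members, PACs within 5 nt past annotated exons held over 10 TPM in every library. They entered no gene level or test, only the share that takes in 500 nt downstream and the search for copies. For RPS29 these held 2665 TPM in the KYSE30 control, 2529 with l-lactate, 1872 in the TE-1 control and 1671 with l-lactate. In the same order, RPLP0 had 1214, 1116, 953 and 845 TPM, RPL30 had 176, 163, 122 and 101 TPM, and RPL6 had 14.4, 13.1, 14.7 and 13.8 TPM. The pseudogene RPLP1P6 had a PAC at 4.58, 3.35, 5.29 and 4.72 TPM.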

How the results depend on the processing

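Control and l-lactate libraries were paired by line through the line term of the fit. No fit with a replicate block was made because the labels carry no replicate numbers, and with 1 library per condition none was left out. Count models on recovered tags were not run, since the listed values start at 8 to 11 tags and were not accepted as recovered counts. Of the remaining alternatives for named members, 158 of 160 kept their direction and side of the threshold and 0 reversed. A change of filter or variance trend leaves the fitted log2 difference as it is, so direction could not reverse there. For l-lactate, the 78 that kept their side stayed uncalled. With a pseudocount of 5 TPM the l-lactate fit called 2 members, RPL22 (0.29) and RPL28 (-0.27), and 186 genes in all, 117 higher and 69 lower. With a filter at 20 TPM it called 9 of 6782 genes, 7 higher and 2 lower. Without the variance trend, 35 members (46.1%) differed between lines, 14 higher in TE-1, beside 66.4% of all genes.

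Within KYSE30, 3 members were called at a lower fold threshold (17.9% of all genes), and 0 at 2-fold (2.2%), with a pseudocount of 5 TPM (2.09%), with the highest PAC only (5.14%) or above 20 TPM (2.54%). Within TE-1, 4 were called at the lower threshold (17.4%), and 0 with the highest PAC (5.11%) or above 20 TPM (2.2%). Centring on the median gene moved the TE-1 median from -0.09 to -0.15.

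The shares in KYSE30 l-lactate, KYSE30 control, TE-1 l-lactate and TE-1 control were 19.4%, 19.8%, 17.8% and 19.2% for 3′ UTRs only, 20.2%, 20.6%, 18.7% and 20.1% for gene bodies with 500 nt downstream, and 18.4%, 18.7%, 17.0% and 18.4% of all tags. Median full width was 49, 43, 49 and 49 nt over the highest PACs, and over all members' PACs the median quantile width was 5 nt in each library. Dominant sites lay within 24 nt in 100% of KYSE30 PACs, and within 5 and 24 nt in 98.9% between control lines. With AUUAAA counted, 94.8%, 94.9%, 93.5% and 94.8% of main sites had a signal. On the longest 3′ UTR the median was 73 nt.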
